A study of Mus musculus with 12 samples.

Results

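Growth hormone released by the pituitary acts on the liver through a receptor on hepatocytes, the epithelial cells that make most plasma proteins. The occupied receptor switches on the kinase JAK2, which phosphorylates the transcription factor STAT5B, and STAT5B then drives transcription of Igf1, of Igfals and of the feedback inhibitors Socs2 and Cish. IGF1, insulin-like growth factor 1, leaves the liver and travels in blood bound to binding proteins, most of it in a complex with IGFBP3 and the acid-labile subunit encoded by Igfals. The axis is known to be blunted by inflammation and by fasting, and in rodents the timing of growth hormone pulses gives male and female livers different sets of target genes.

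Transcripts of 8 genes of this axis were examined in mouse liver. They are the receptor Ghr, the transducer Stat5b, the inhibitors Socs2 and Cish, the secreted products Igf1 and Igfals, and the binding proteins Igfbp2 and Igfbp3. They were a chosen list of symbols, each matched to its Ensembl gene, and all 8 were found among the 24187 genes of the count matrix. Bulk RNA sequencing had been done on ribosomal RNA-depleted total RNA from frozen liver pieces of 12 C57BL/6 mice, aged 10 to 12 weeks by the study's methods, which name the substrains C57BL/6 J and C57BL6/JOlaHsd. The 3 control mice were untreated, 5 mice received acetaminophen (APAP, 350 mg/kg by the labels) and then phosphate-buffered saline as vehicle, and 4 mice received the same APAP dose and then hAAMs, human alternatively activated macrophages grown from donor blood monocytes. The text that accompanies the severe model names a higher dose than the labels do. Cells or vehicle were given 16 h after APAP, and livers were taken at 36 h by the methods or 32 h by a legend. By the methods, a fast of 12 h came before the injection of APAP or of saline, and chow was given back soon after APAP. The labels call the sequenced controls untreated, so it is unclear whether they had the fast, and the effects of APAP and of the fast cannot be told apart in comparisons with control. The labels do not state sex. Ddx3y, on the Y chromosome, had 3064 to 4281 counts and Xist, which silences the second X chromosome of females, had 10 to 149 counts in the 12 livers. By these genes all 12 livers were male.

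Total counts were 60870399 to 74056505 in control livers, 50859599 to 61826952 in APAP vehicle livers and 47391650 to 55379420 in APAP hAAM livers, and each of the 8 genes had between 324 and 34446 counts in every liver. Levels below are counts-per-million (CPM) values after scaling with trimmed mean of M values (TMM) factors. These factors were 0.832 to 0.859 in control, 1.02 to 1.13 in APAP vehicle and 0.933 to 1.14 in APAP hAAM livers. Control and APAP livers thus did not overlap in them, and comparisons with control depend on this scaling. A whole-tissue measurement cannot separate fewer cells of a type from less RNA per cell. The libraries of APAP hAAM replicate 4 and APAP vehicle replicate 3 differed by only 1.19 times the spread that counting alone gives, whereas any other pair of livers differed by 2.37 to 7.12 times that spread, although they carry different labels. Control replicate 1 also stood apart for several genes described here. Several results below are given with and without them. The study treats the livers as separate animals.

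The liver markers were present in every group. The summed CPM of 9 hepatocyte markers was 76901 to 105691 in control, 75187 to 106767 in APAP vehicle and 78073 to 113130 in APAP hAAM livers. Of these markers, 4 of 9 fell in APAP vehicle livers and 1 of 9 in APAP hAAM livers, against 14.8% and 9.96% of all genes. Without control replicate 1 it was 1 of 9 in each, against 10.5% and 6.54% of all genes. Macrophage markers summed to 265 to 302 CPM in control, 356 to 599 CPM in APAP vehicle and 356 to 607 CPM in APAP hAAM livers, and 6 of 11 rose in each comparison with control, where 15.0% (APAP vehicle) and 10.7% (APAP hAAM) of all genes did. Stellate cell markers summed to 258 to 336 CPM in control livers and 354 to 769.5 CPM over the APAP groups, and 4 of 8 rose in each comparison with control, beside the same shares. Neutrophil markers (5 measured), cholangiocyte markers (5) and lymphocyte markers (6) had no edgeR call in any comparison, with at most 1 gene of a list at an unadjusted p under 0.05. The part of these cell types in the results below was not tested.

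Compared with control livers, APAP vehicle livers had less transcript of the receptor, of the transducer, of an inhibitor and of the acid-labile subunit, whereas Igf1 itself was at the same level to within the spread between livers. In edgeR's quasi-likelihood test at a Benjamini-Hochberg false discovery rate (FDR) of 0.05, 5 of the 8 genes were called. Ghr, Stat5b, Socs2 and Igfals were lower and Igfbp3 was higher. Over all 22581 genes tested, 29.8% were called, 14.8% lower and 15.0% higher. In the same 5 genes the APAP vehicle and control livers did not overlap, as for 34.8% of all genes (17.3% lower, 17.5% higher). The median log2 fold change of the 8 genes was -0.70, against 0.01 over all genes. In APAP hAAM livers 2 of the 8 genes were called against control, Socs2 and Stat5b, both lower, with 20.7% of all genes called (9.96% lower), and the median was -0.37 against 0.02 over all genes. The same 2 genes did not overlap between these groups (28.5% of all genes, 14.2% lower). At an unadjusted p under 0.05 the counts were 6 of 8 (41.8% of all genes) and 4 of 8 (35.2%). The counts of the 8 genes called in APAP vehicle and APAP hAAM livers, all lower, were 2 and 0 without control replicate 1. In that fit 10.5% and 6.54% of all genes were lower. Without the near-identical pair they were 3 and 1, also all lower, beside 14.0% and 8.49% of all genes. With library size alone as the scaling, 2 were higher (Igf1 and Igfbp3) and 2 lower (Stat5b and Socs2) in APAP vehicle livers, and 2 higher (the same genes) and 1 lower (Socs2) in APAP hAAM livers. Of all 22581 genes, 9747 and 7340 were then called, 8637 and 6559 of them higher. These comparisons share the control livers.

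**Figure D1:**
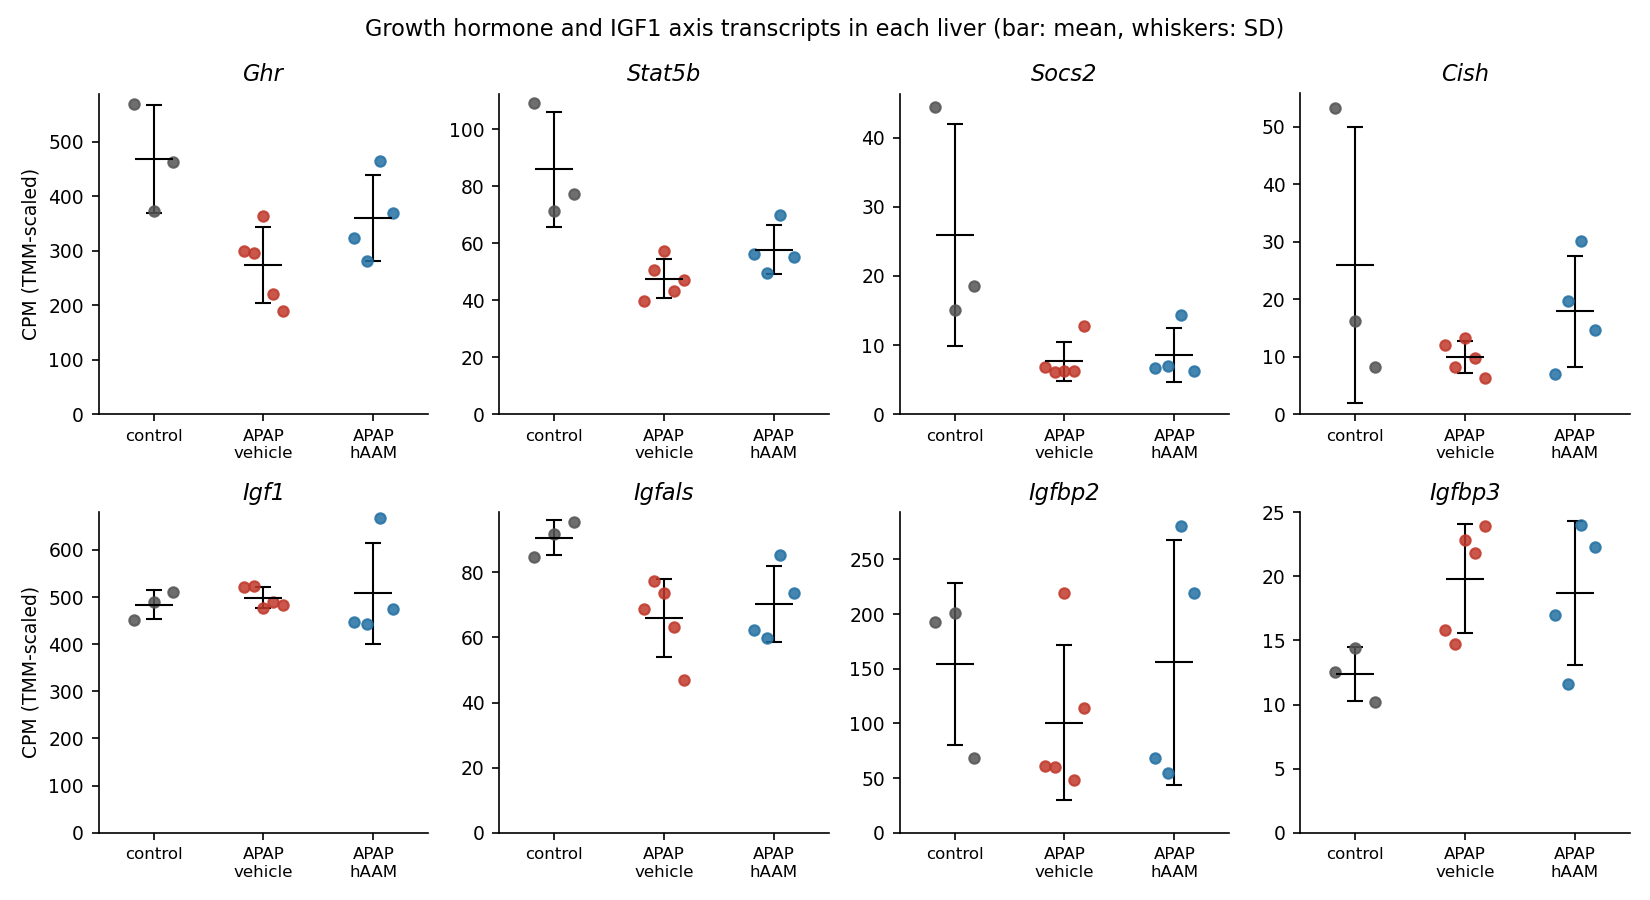
TMM-scaled CPM (vertical axes, each from 0) of the 8 genes in 3 control, 5 APAP vehicle and 4 APAP hAAM livers, with 1 point for each liver, bars at the group means and whiskers for the SD. Socs2 and Stat5b show no overlap between control and either APAP group, Igf1 shows level means of 484, 498 and 508 CPM, and Igfbp2 is scattered from 48.7 to 281 CPM.

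Ghr encodes the growth hormone receptor (GRCm38 chromosome 15, 3317760 to 3583492, minus strand). The 3 control livers had 569, 373 and 462 CPM. The APAP vehicle livers had 299, 296, 363, 189.7 and 220.5 CPM, and the APAP hAAM livers had 323, 282, 464 and 369.8 CPM. All APAP vehicle livers lay below the lowest control liver, while the highest hAAM-treated liver lay within the control range. The mean in APAP vehicle livers was 274 ± 69.0 CPM (SD, n = 5), 1.71-fold below the control mean of 468 ± 98.4 (SD, n = 3), a difference of -0.77 on the log2 scale (SE 0.219, FDR 0.0199 in edgeR). In hAAM-treated livers the mean was 359.5 ± 78.3 CPM (SD, n = 4) and the difference from control was -0.38 (95% confidence interval -0.88 to 0.12, FDR 0.264). Without control replicate 1, which had the highest level, the APAP vehicle difference was -0.61 with an FDR of 0.0952, and without control replicate 3 it was -0.78 with an FDR of 0.0536. Without the near-identical pair it was -0.89 (FDR 0.0152), and with library size alone as the scaling it was -0.44 (FDR 0.0718). The counts are summed over the gene, so the full-length receptor and the shorter transcript for the secreted growth hormone binding protein were not separated.

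Stat5b (chromosome 11, 100780731 to 100850724, minus strand) encodes the main STAT5 protein of hepatocytes. Control livers had 109, 71.3 and 77.5 CPM. The levels were 39.8, 50.5, 57.3, 43.3 and 47.1 CPM in APAP vehicle livers and 56.3, 49.6, 69.9 and 55.2 CPM in APAP hAAM livers. Every APAP liver lay below every control liver. Stat5b fell by 0.85 on the log2 scale in APAP vehicle livers (SE 0.156, FDR 0.00239, 1.81-fold) and by 0.57 in APAP hAAM livers (SE 0.165, FDR 0.0291, 1.49-fold). The call in APAP vehicle livers held in each of the 22 alternative fits. The call in hAAM-treated livers held in 12 of 22 and was lost when control replicate 1 (FDR 0.138) or control replicate 3 (FDR 0.0518), or hAAM replicate 1 (FDR 0.0702), 2 (FDR 0.0800) or 4 (FDR 0.0582), was left out, and without the near-identical pair (FDR 0.0542). With library size alone it was -0.28 and scaled to hepatocyte markers -0.37 (FDR 0.129 in each).

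Socs2 (chromosome 10, 95385362 to 95417180, minus strand) encodes a suppressor of cytokine signalling that binds the activated growth hormone receptor and is a standard readout of STAT5B activity. Its levels were 44.4, 15.1 and 18.5 CPM in control livers. They were 6.86, 6.13, 6.27, 6.27 and 12.7 CPM in APAP vehicle livers and 6.62, 7.02, 14.3 and 6.20 CPM in APAP hAAM livers. A single liver in each APAP group, vehicle replicate 5 and hAAM replicate 3, came close to the lowest control liver, and the others clustered tightly below it. Socs2 had the largest fold changes of the 8 genes. It was 3.39-fold lower in APAP vehicle livers (log2 fold change -1.76, SE 0.382, FDR 0.00560) and 3.04-fold lower in APAP hAAM livers (-1.60, SE 0.408, FDR 0.0178). The control mean of 26.0 CPM rests in part on replicate 1. Without that liver the log2 fold change in APAP vehicle livers was -1.13 and still called, at an FDR of 0.0381, and in APAP hAAM livers it was -0.97 and no longer called (FDR 0.0967). In APAP hAAM livers the call was also lost without hAAM replicate 1 (FDR 0.0537) or 2 (FDR 0.0510). Without the near-identical pair the values were -1.69 (FDR 0.0145) and -1.47 (FDR 0.0494).

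Cish (chromosome 9, 107296026 to 107302784, plus strand) encodes a related STAT5-induced inhibitor. Its control levels of 53.2, 16.3 and 8.22 CPM had a coefficient of variation of 92.6%, and no difference passed edgeR's test. APAP vehicle livers had 12.1, 8.27, 13.4, 9.71 and 6.32 CPM. APAP hAAM livers had 7.0, 19.7, 30.2 and 14.7 CPM. The groups overlapped, since the lowest control liver lay among the APAP livers. The log2 fold changes were -1.38 (95% confidence interval -2.53 to -0.23, FDR 0.0665) in APAP vehicle and -0.53 (-1.75 to 0.68, FDR 0.530) in APAP hAAM livers, and without control replicate 1 they were -0.30 and 0.55. The former difference was called by DESeq2, at an FDR of 0.0278, and by edgeR without control replicate 3, at -1.81 (FDR 0.0262). Cish shares 261 exon bases with an opposite-strand pseudogene, Gm17040, that was counted separately, and 479 exon bases with an antisense gene, Gm17041, that was not analysed here. The library kit keeps strand, but the strand setting of the counting is not stated, so reads of these genes may have been exchanged.

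Igf1 (chromosome 10, 87858265 to 87937042, plus strand) encodes the growth factor that the liver releases into blood under growth hormone. Control livers had 451, 489 and 511 CPM, APAP vehicle livers had 520.2, 524, 476, 489 and 482 CPM, and APAP hAAM livers had 448, 443, 667 and 475 CPM. The values of the 3 groups overlapped, and hAAM replicate 3 stood above all other livers. The log2 fold change was 0.04 in APAP vehicle livers (95% confidence interval -0.25 to 0.33, FDR 0.835) and 0.07 in APAP hAAM livers (-0.23 to 0.37, FDR 0.751). The coefficient of variation was 6.23% in control and 4.47% in APAP vehicle livers, the smallest of the 8 genes in the latter group, but 21.0% in APAP hAAM livers, above those of Stat5b (15.0%) and Igfals (16.5%). An antisense gene, Igf1os, overlaps the locus but shares 0 exon bases with Igf1. Igf1 was not called with DESeq2's size factors, in DESeq2 or with scaling to hepatocyte markers, where it was at 0.38 (FDR 0.0739) and 0.25 (FDR 0.309). With library size alone the median of all genes moved to 0.36 in APAP vehicle and 0.32 in APAP hAAM livers, and Igf1 moved with it to 0.39 (FDR 0.0128) and 0.36 (FDR 0.0302).

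Igfals (chromosome 17, 24865997 to 24882010, plus strand) encodes the acid-labile subunit, a hepatocyte product that lengthens the time IGF1 stays in blood. Control livers had 84.7, 91.8 and 95.4 CPM, APAP vehicle livers had 68.7, 77.3, 73.5, 63.2 and 47 CPM, and APAP hAAM livers had 62.4, 59.9, 85.2 and 73.7 CPM. All APAP vehicle livers were below all control livers, and hAAM replicate 3 was just above the lowest control liver. Igfals fell by 0.46 on the log2 scale in APAP vehicle livers (SE 0.152, FDR 0.0392, 1.37-fold). The difference in APAP hAAM livers was -0.37 (95% confidence interval -0.71 to -0.02, FDR 0.124). The APAP vehicle call was close to the threshold and held in 5 of the 12 fits that left out 1 liver. It was lost without any 1 of the 3 control livers (FDR 0.0650, 0.0932 and 0.121 without replicates 1, 2 and 3), without vehicle replicate 1 (FDR 0.0614), 4 (FDR 0.0780) or 5 (FDR 0.0523), and without hAAM replicate 4 or the near-identical pair (FDR 0.0512 in each). With library size alone it was -0.12 (FDR 0.467), and scaled to hepatocyte markers it was -0.14 (FDR 0.452).

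Promoters were searched for the palindrome bound by STAT5 proteins, TTCNNNGAA, whose fixed letters read the same on the opposite strand. The windows were the 250 bases before each start site in RefSeq (GRCm38.p6), and 2306 of 32851 windows (7.02%) held a match. Of the 8 genes, 7 had at least 1 window, 12 windows in all, and only Igfals had a match. Socs2 was not in the table. A match is a description of letters and not a measured binding site, and no match says only that these letters are not in the window. Igfals had a match in 2 of its windows, 58 and 236 bases before the respective start sites. The stretches are given up to the nearest annotated exon, 5′ to 3′ on the plus strand, with the matched bases in capitals, so that the letters can be compared with those of Bcl6 further on.
Igfals, chr17:24877981-24878214: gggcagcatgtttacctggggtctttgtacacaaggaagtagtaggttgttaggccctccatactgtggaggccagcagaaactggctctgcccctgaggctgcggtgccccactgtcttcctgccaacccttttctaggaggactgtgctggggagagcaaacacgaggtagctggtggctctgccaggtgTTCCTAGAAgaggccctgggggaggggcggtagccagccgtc
Igfals, chr17:24877594-24877655: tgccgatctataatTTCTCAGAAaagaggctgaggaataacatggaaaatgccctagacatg

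Igfbp2 and Igfbp3 encode carriers of IGF1. Igfbp2 (chromosome 1, 72824503 to 72852474, plus strand) is made by hepatocytes and known to rise on fasting, and Igfbp3 (chromosome 11, 7206086 to 7213923, minus strand) is made in rodent liver mainly by non-parenchymal cells. Igfbp2 had 193, 201 and 68.5 CPM in control livers, 61.2, 59.8, 219, 48.7 and 114 CPM in APAP vehicle livers and 68.5, 54.9, 281 and 219 CPM in APAP hAAM livers. Each group held livers near 60 and livers near 200 CPM, the groups overlapped throughout, and the near-identical libraries both had 219 CPM. Differences were -0.62 (95% confidence interval -1.95 to 0.71, FDR 0.475) in APAP vehicle livers and 0.02 (-1.39 to 1.42, FDR 0.990) in APAP hAAM livers, so a fall of 2-fold lay within either interval and was not detectable at this spread.

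Igfbp3 was the 1 gene of the 8 that rose. Control livers had 12.5, 14.4 and 10.2 CPM, APAP vehicle livers had 15.8, 14.7, 22.8, 21.9 and 23.9 CPM, and APAP hAAM livers had 17.0, 11.6, 24.0 and 22.3 CPM. The lowest APAP vehicle liver was just above the highest control liver, while hAAM replicate 2 lay within the control range. The increase in APAP vehicle livers was 1.60-fold (log2 fold change 0.68, SE 0.237, FDR 0.0488), at the edge of the threshold, and the difference in APAP hAAM livers was 0.59 (95% confidence interval 0.06 to 1.13, FDR 0.106). The latter was called without hAAM replicate 2 (0.77, FDR 0.0353) and with library size alone (0.87, FDR 0.0142). The APAP vehicle call held in 4 of the 12 fits that left out 1 liver, with an FDR of up to 0.171 without control replicate 3. It was lost without control replicate 1 (FDR 0.110) or 2 (FDR 0.0609), vehicle replicate 3 (FDR 0.0803), 4 (FDR 0.0897) or 5 (FDR 0.0942), hAAM replicate 1 (FDR 0.0571) or 4 (FDR 0.0535), and the near-identical pair (FDR 0.0846), and with DESeq2's size factors in edgeR (FDR 0.0519). Endothelial markers summed to 387 to 432 CPM in control, 446 to 592 CPM in APAP vehicle and 412 to 574 CPM in APAP hAAM livers, and 4 of 8 rose in APAP vehicle livers (15.0% of all genes higher) and 2 of 8 in APAP hAAM livers (10.7%). It was 3 and 0 without control replicate 1 (11.005% and 6.57% of all genes higher). Their part in the Igfbp3 difference was not tested.

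Given per kilobase of exon, the levels of the 8 genes spanned more than an order of magnitude. In control livers the order of the mean level was Igfbp2 (83.5 CPM per kb), Ghr (51.7), Igf1 (48.8), Igfals (28.6), Stat5b (15.5), Cish (4.04), Igfbp3 (3.96) and Socs2 (2.73). The ranges of Igfbp2, Ghr and Igf1 overlapped, as did those of Cish, Igfbp3 and Socs2, so these neighbours were not ordered beyond their spread. In APAP vehicle livers Igf1 (50.3) stood above Ghr (30.2), and Igfbp3 (6.33) stood above Cish (1.55) and Socs2 (0.802). Among 22495 genes with a length, Socs2 lay above 61.4% of genes in control livers and above 36.4% in APAP vehicle livers, while Igf1 lay above 96.4% and 97.1%.

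**Figure D2:**
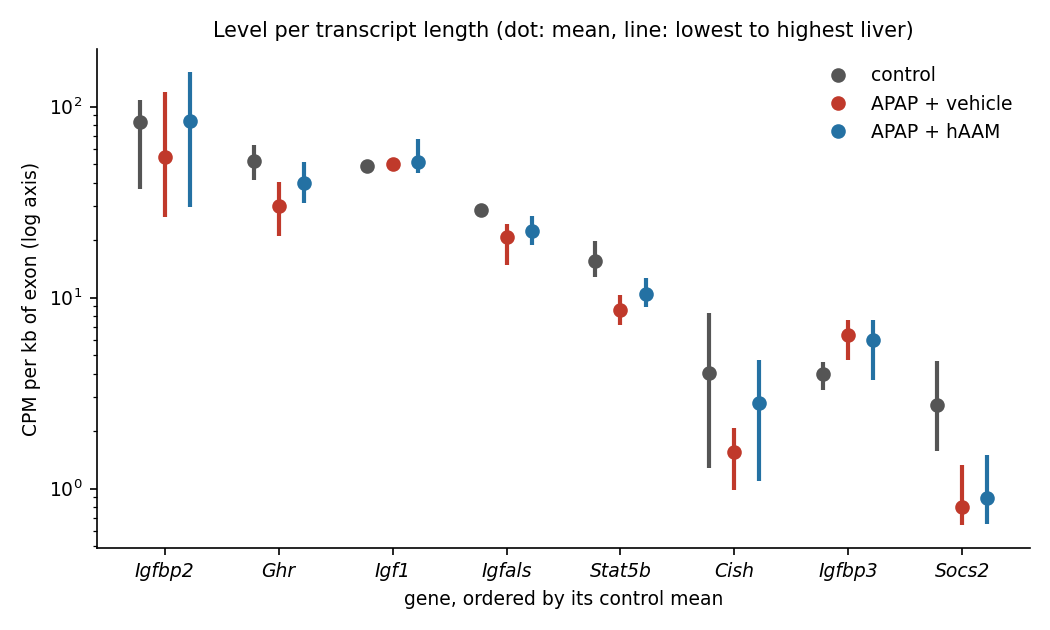
CPM per kb of exon (logarithmic vertical axis) of the 8 genes, ordered by control mean, with dots for group means and lines from the lowest to the highest liver in 3 control, 5 APAP vehicle and 4 APAP hAAM livers. Igfbp2, Ghr and Igf1 are the most abundant per length, and Socs2 is the least abundant in each group.

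The treatment question, whether hAAMs given after APAP altered the axis, was addressed by APAP hAAM against APAP vehicle livers. None of the 8 genes differed in edgeR's test at an FDR of 0.05 (0% of all genes called) or at an unadjusted p of 0.05 (5.02% of all genes, 1133, passed), and DESeq2 called 0 of the 8 and 1 gene in all. The groups overlapped for every one of the 8, where 1.40% of all genes did not. Estimates were 0.39 for Ghr (95% confidence interval -0.05 to 0.84), 0.28 for Stat5b (-0.04 to 0.60), 0.16 for Socs2 (-0.63 to 0.95) and 0.85 for Cish (-0.23 to 1.92). They were 0.03 for Igf1 (-0.24 to 0.29), 0.09 for Igfals (-0.21 to 0.40), 0.63 for Igfbp2 (-0.60 to 1.87) and -0.08 for Igfbp3 (-0.55 to 0.38). In this fit, which keeps the near-identical libraries, the intervals exclude a change of 2-fold for Igf1, Igfals, Ghr, Stat5b, Socs2 and Igfbp3. Those of Cish and Igfbp2 do not. Intervals are not given for the fit without that pair, so whether the exclusion holds there was not tested. Without the near-identical pair, 1 from each group, the estimates were 0.50 for Ghr, 0.37 for Stat5b, 0.22 for Socs2 and 1.06 for Cish. They were 0.04 for Igf1, 0.11 for Igfals, 0.93 for Igfbp2 and -0.13 for Igfbp3, and again none of the 8 was called (FDR 0.732 to 0.988). Within the hAAM group, replicate 3 had the highest level of all 8 genes. That Ghr, Igfals and Igfbp3 were called in 1 APAP group and not in the other therefore does not show a difference between the groups.

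**Figure D3:**
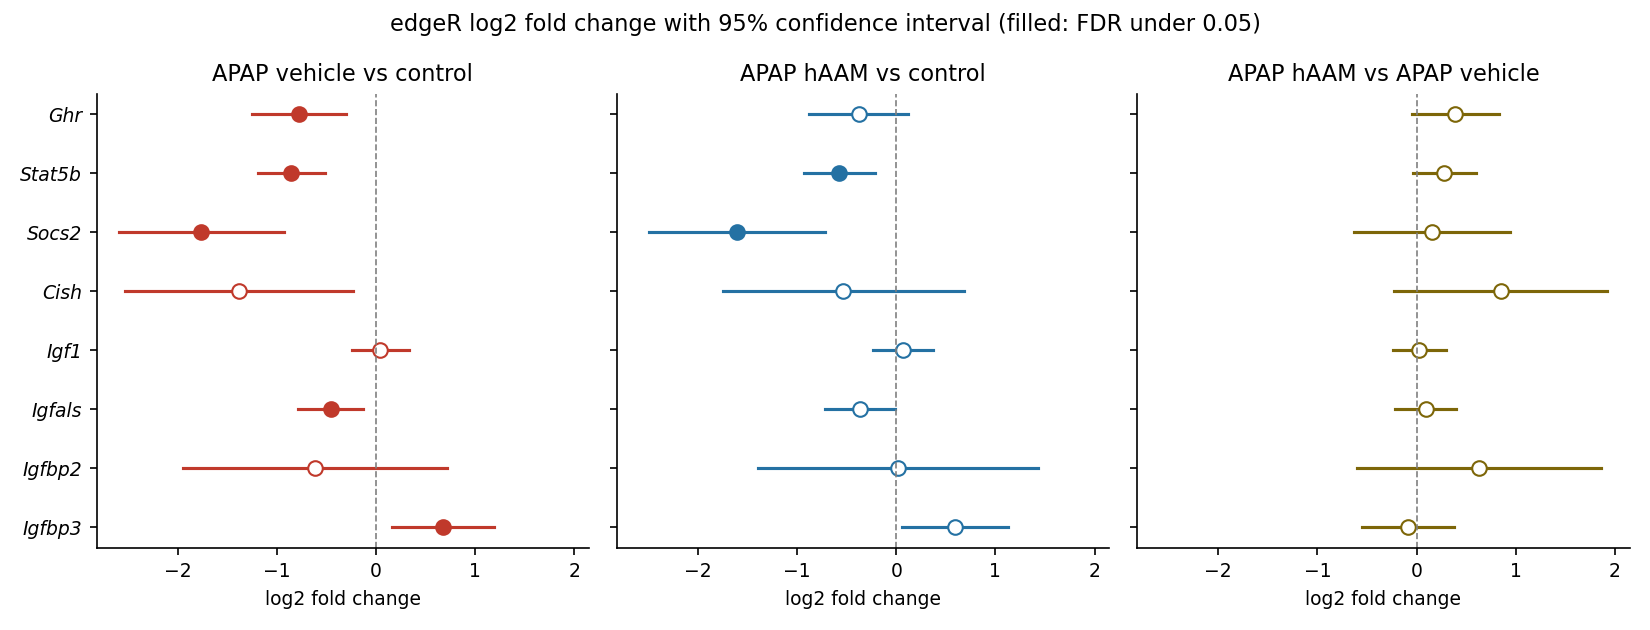
edgeR log2 fold changes (horizontal axes) of the 8 genes in the 3 comparisons, with 95% confidence intervals as lines and filled circles for an FDR under 0.05. Socs2 and Stat5b are lower in APAP livers of either kind, Igf1 lies at 0.04 and 0.07, and every interval of APAP hAAM against APAP vehicle includes 0.

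Of 30 other genes of growth hormone and IGF signalling, 28 were tested. In APAP vehicle livers 4 were higher and 8 lower (15.0% and 14.8% of all genes), and in APAP hAAM livers 4 were higher and 6 lower (10.7% and 9.96%). Without control replicate 1, 4 were higher and 5 lower in the former, beside 11.005% and 10.5% of all genes. In the latter 3 were higher and 4 lower, beside 6.57% and 6.54%. The median log2 fold changes of the 28 genes, with all livers kept, were -0.16 and -0.11. The 4 with the smallest p were all lower. Stat5a, the close relative of Stat5b, had 54.0, 23.7 and 29.4 CPM in control livers, 13.7 to 18.2 CPM in APAP vehicle and 14.8 to 18 CPM in APAP hAAM livers. It fell by 1.17 on the log2 scale (SE 0.206, FDR 0.00196) and by 1.12 (SE 0.218, FDR 0.00560). Without control replicate 1, whose Stat5a level was the highest, it fell by 0.74 (FDR 0.00313) and by 0.69 (FDR 0.00825). Stat3, the transducer of interleukin-6 type signals, had 291, 299 and 300.5 CPM in control livers and 153 to 191 CPM in the APAP livers, and fell by 0.79 (FDR 0.000235) and 0.76 (FDR 0.000787). Socs3, its feedback inhibitor, had 189, 51.0 and 72.9 CPM in control livers, and at most 31.7 CPM in the APAP livers. It fell by 2.05 (FDR 0.00136) in the former group and fell by 2.58 (FDR 0.00127) in the latter. Socs3 was also highest in control replicate 1, without which it fell by 1.30 (FDR 0.00293) and by 1.83 (FDR 0.000985). Ptpn1, a phosphatase that acts on JAK2 and the insulin receptor, fell by 0.74 (FDR 0.000245) and 0.83 (FDR 0.000292). For Stat5a, Stat3, Socs3 and Ptpn1 no APAP liver reached the lowest control liver.

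At the receptors and adaptors the directions were mixed. Igf1r, the IGF1 receptor, rose by 0.67 (SE 0.133, FDR 0.00370) in APAP vehicle livers and 0.57 (SE 0.138, FDR 0.0142) in APAP hAAM livers, while Insr, the insulin receptor, fell by 0.53 (FDR 0.0171) and 0.48 (FDR 0.0408), the latter not called without control replicate 1 (FDR 0.0940) or without the near-identical pair (FDR 0.0700). Jak2, the kinase between GHR and STAT5B, was at -0.09 (95% confidence interval -0.40 to 0.22) and -0.08 (-0.40 to 0.25), which excludes a change of the size measured for Stat5b. Grb10, Sirpa and Ptpn6 were the other genes called higher, in both comparisons. Socs1 was at -1.12 (FDR 0.0676) and -1.43 (FDR 0.0466), and at -0.13 and -0.44 (FDR 0.793 and 0.365) without control replicate 1. Igfbp1, a binding protein raised in fasting, had 663, 145 and 52.6 CPM in control livers, 194.5 to 327 CPM in APAP vehicle and 200.6 to 484 CPM in APAP hAAM livers. All APAP livers lay between control replicate 1 and the other two. Its differences from control were -0.22 (FDR 0.810) and 0.09 (FDR 0.930), and without control replicate 1 they were 1.32 (FDR 0.0460) and 1.63 (FDR 0.0348), both called higher. The split between higher and lower in this list depended on the scaling. With library size alone it was 8 higher and 5 lower in APAP vehicle livers, where 9747 of 22581 genes were called, 8637 of them higher. Scaled to hepatocyte markers it was 6 higher and 4 lower, where 5671 genes were called, 4770 of them higher.

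Male-biased targets of growth hormone and STAT5B in mouse liver were a further list of 18 genes, all tested. The list was chosen with earlier results of these data known, so its counts are descriptive. In APAP vehicle livers 14 of 18 were lower and 0 higher, with a median log2 fold change of -1.60, beside 14.8% lower among all genes. In APAP hAAM livers 10 of 18 were lower and 0 higher, with a median of -1.24 (9.96% of all genes lower). Without control replicate 3 the count in APAP vehicle livers was 9, where 4633 of 23084 genes were called, 2226 of them higher. Without the near-identical pair the counts were 11 and 8, beside 14.0% and 8.49% of all genes lower. The 14 include Moxd1, which had 172 CPM in control replicate 3 beside 0.591 and 1.87 CPM in the other control livers and 0.0522 to 7.17 CPM in APAP vehicle livers. The direction held under each scaling tried, with 13 or 14 lower in APAP vehicle livers and 10 lower in APAP hAAM livers. Over all genes, 8637 of 9747 calls in APAP vehicle and 6559 of 7340 in APAP hAAM livers were higher with library size alone. Scaled to hepatocyte markers these were 4770 of 5671 and 1874 of 2474. Elovl3, a fatty acid elongase, had 445, 134 and 186 CPM in control livers, 9.05, 11.6, 17.8, 3.34 and 6.85 CPM in APAP vehicle livers and 68.2, 30.4, 45.1 and 19.5 CPM in APAP hAAM livers. It was 26.3-fold lower (log2 fold change -4.72, SE 0.554, FDR 0.000232) and 6.25-fold lower (-2.64, SE 0.559, FDR 0.00803). Without control replicate 1, whose Elovl3 level was the highest, the log2 fold changes were -4.04 (FDR 0.000768) and -1.97 (FDR 0.0356). Cyp7b1, an oxysterol hydroxylase, fell by 2.97 (SE 0.358, FDR 0.000259) and 1.96 (SE 0.377, FDR 0.00533). Cyp2u1 fell by 1.01 (FDR 0.000968) and 0.75 (FDR 0.00897). Several genes of the list belong to families of near-identical copies, the Mup, Cyp4a12 and Ugt2b genes among them, for which the assignment of reads is uncertain.

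Bcl6, a transcriptional repressor, had the smallest p of the list in APAP vehicle livers. It is more abundant in male than in female liver and is known to be held down by STAT5 during growth hormone pulses, unlike most genes of the list. Control livers had 63.6, 75.6 and 94.2 CPM, APAP vehicle livers had 14.6, 19.9, 14.1, 13.2 and 18.7 CPM, and APAP hAAM livers had 17.1, 13.1, 11.6 and 14.6 CPM. No APAP liver came near the control range. Bcl6 fell by 2.27 (SE 0.166, FDR 1.69e-05) and 2.47 (SE 0.18, FDR 2.82e-05). Of 11 male-biased genes with a RefSeq promoter window, 2 had a match to TTCNNNGAA, Moxd1 and Bcl6. Bcl6 had matches in 2 windows. That of an upstream start site had 1 match, 118 bases before the start. The other, 250 bases before an internal start site, had 3 matches, a number reached by 9 of all 32851 windows (0.0274%). It is shown 5′ to 3′ on the minus strand (GRCm38.p6), with the 3 matches in capitals, for comparison with the single matches at Igfals.
Bcl6, chr16:23981284-23981533: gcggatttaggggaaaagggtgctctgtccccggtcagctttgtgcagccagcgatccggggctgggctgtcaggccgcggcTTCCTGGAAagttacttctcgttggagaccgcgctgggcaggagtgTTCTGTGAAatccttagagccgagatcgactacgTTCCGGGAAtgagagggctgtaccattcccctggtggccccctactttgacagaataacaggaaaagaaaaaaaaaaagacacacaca

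**Figure D4:**
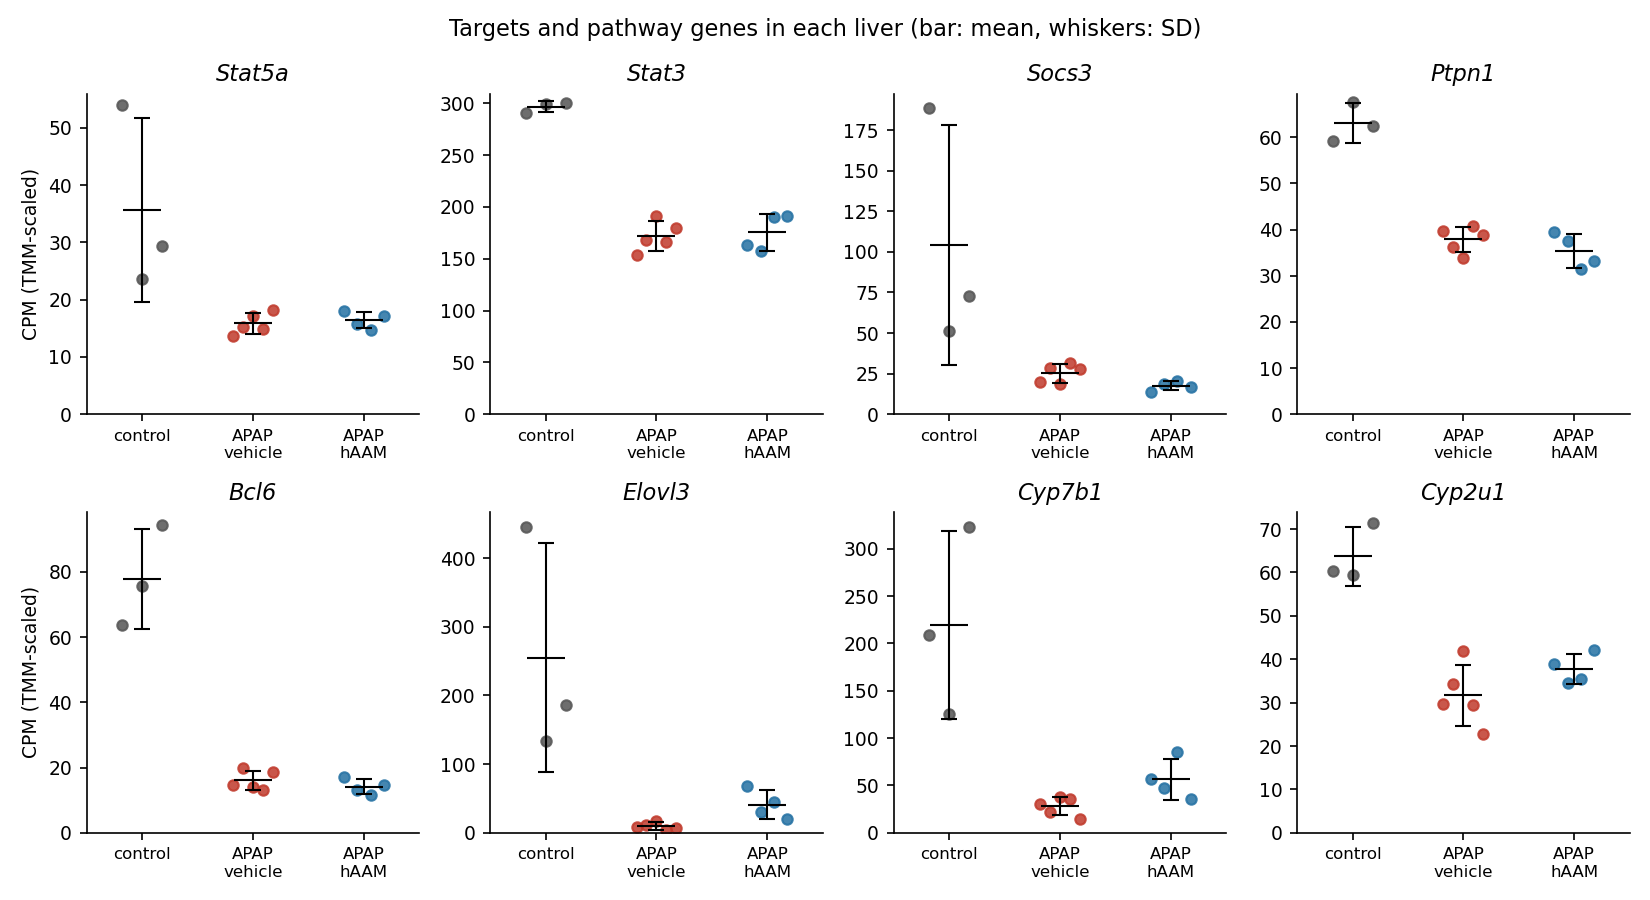
TMM-scaled CPM (vertical axes, each from 0) of the 4 pathway genes and the 4 male-biased targets with the smallest p, in 3 control, 5 APAP vehicle and 4 APAP hAAM livers, with 1 point for each liver, bars at the means and whiskers for the SD. In each of the 8 panels all APAP livers lie below the control livers.

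Female-biased targets did not move together. Of 15 such genes 10 were tested, and in APAP vehicle livers 2 were higher and 3 lower, beside 15.0% and 14.8% of all genes. In APAP vehicle livers Cux2 and Trim24, regulators more abundant in female liver, rose by 1.14 (FDR 0.0362) and 0.40 (FDR 0.0259). Cyp3a41a, Cyp3a44 and Cyp3a16, close copies of each other with 2 to 40 counts in these livers, fell. None of these 5 calls was made without control replicate 1 (FDR 0.0674 to 0.119). In APAP hAAM livers 0 of 10 were called, beside 20.7% of all genes (1 with an unadjusted p under 0.05, 0 by DESeq2). In the direct comparison of the treatments none of the male-biased or female-biased genes was called by edgeR (3 of 18 and 2 of 10 had an unadjusted p under 0.05, beside 5.02% of all genes). Elovl3, at 2.07 (95% confidence interval 1.00 to 3.15, FDR 0.966) higher in APAP hAAM livers, and Trim24, at -0.59 (-0.83 to -0.35, FDR 0.966), were the genes of these lists whose treatment groups did not overlap (0.709% of all genes higher and 0.691% lower), and Trim24 was the 1 gene called by DESeq2. Without the near-identical pair the estimates were 2.63 (FDR 0.353) for Elovl3 and -0.73 (FDR 0.164) for Trim24. Both genes were picked out after their values were seen.

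**Figure D5:**
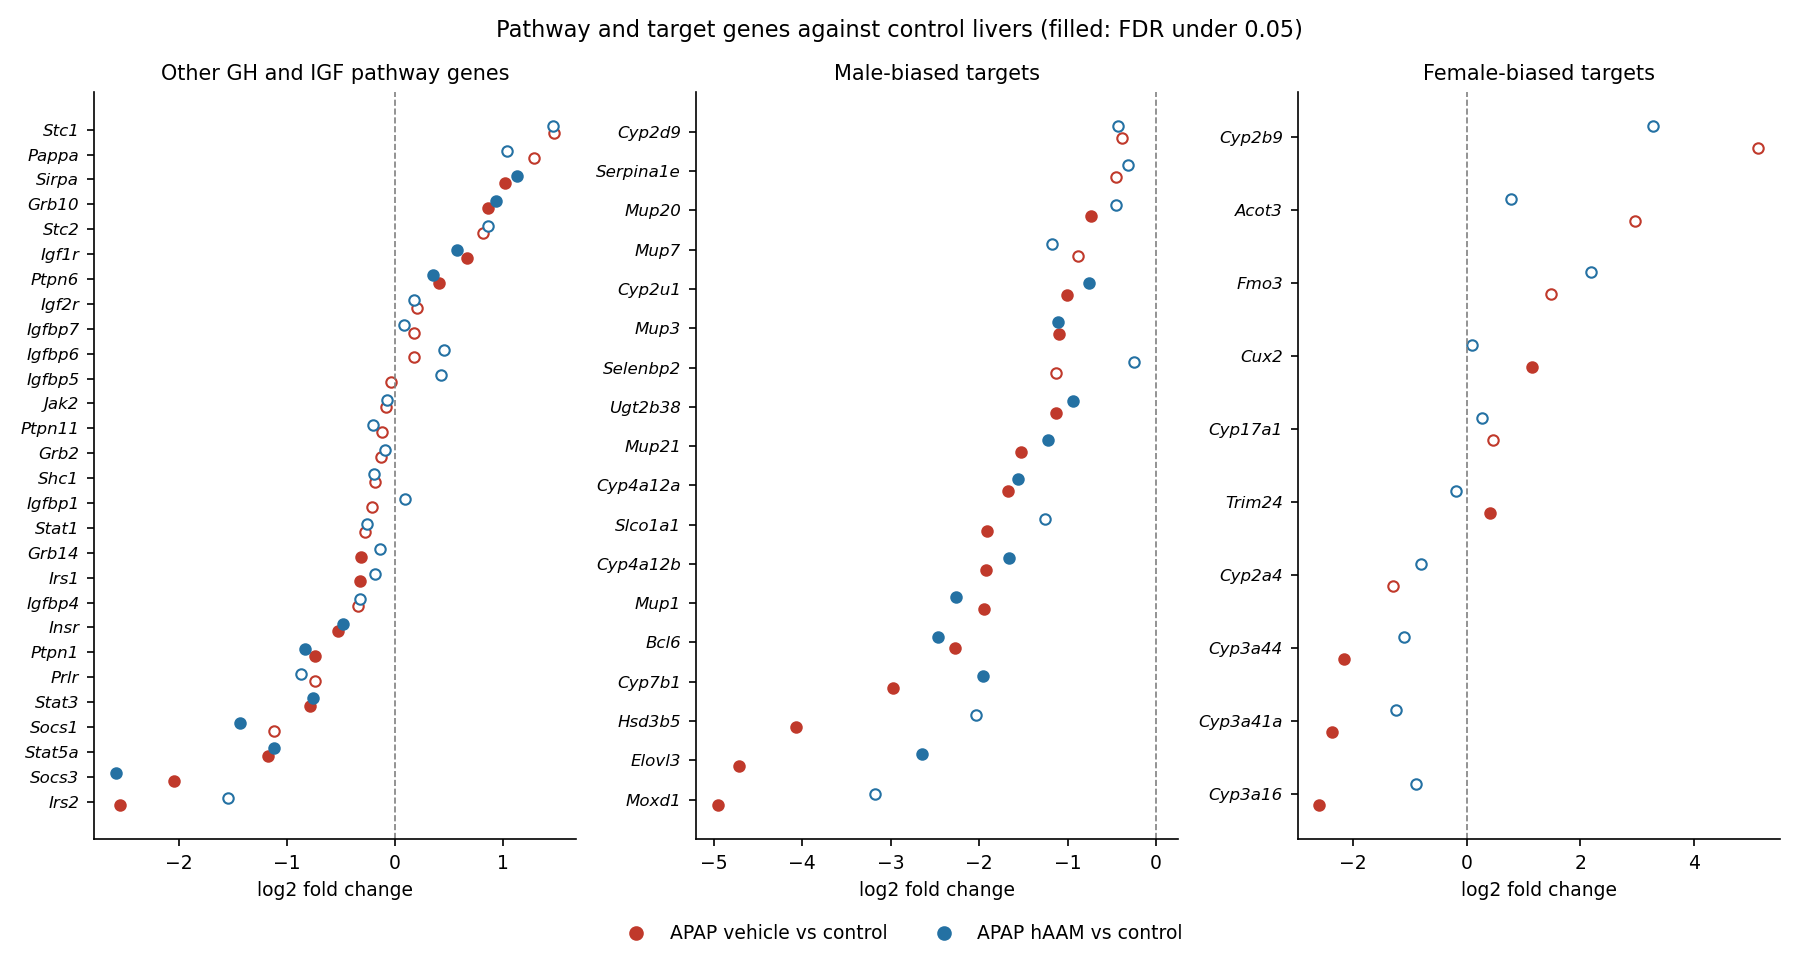
edgeR log2 fold change against control livers (horizontal axes) for 28 other pathway genes, 18 male-biased targets and 10 female-biased targets, in red for APAP vehicle and blue for APAP hAAM livers, with filled circles for an FDR under 0.05. All estimates for the male-biased targets are below 0, and those of the other lists lie on either side.

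Genes that respond to feeding state were also counted. Of 7 feeding-induced genes of lipid synthesis, 3 fell in APAP vehicle livers and 2 in APAP hAAM livers, beside 14.8% and 9.96% of all genes. Without control replicate 1 the counts were 3 and 1 (10.5% and 6.54% of all genes lower), and without the near-identical pair 5 and 4 (14.0% and 8.49%). Scd1, a fatty acid desaturase, fell by 3.68 (FDR 0.00342) and by 2.7 (FDR 0.0271), the latter not called without control replicate 1 (FDR 0.0757). The summed CPM of the list was 8643 to 13500.2 in control, 871 to 3654 in APAP vehicle and 1600.2 to 3841 in APAP hAAM livers. Of 11 fasting-induced genes, only Ppargc1a rose, in either APAP group (15.0% and 10.7% of all genes higher), and Irs2 fell in APAP vehicle livers (14.8% lower). The APAP vehicle calls of both were lost without control replicate 1 (FDR 0.0632 for Ppargc1a and 0.0763 for Irs2), while Igfbp1, also of this list, was then called higher in each APAP group, as given above. The summed CPM of this list overlapped between groups (4421 to 6358, 3546 to 6510 and 3704 to 8323). The part of feeding state in the results was not tested.

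The genes whose levels most resembled those of a member across the 12 livers were found among 11172 genes by Pearson's correlation of log2 CPM. The livers share treatment, depth and the near-identical pair, so the values are descriptive. For Ghr they were Ugt1a6b (r = 0.978), Aco1 (0.977) and Ndufs3 (0.976). For Igf1 they were Mkrn2 (0.905), Styx (0.898) and Akap11 (0.856). For Igfbp2 they were Rnf128 (0.939), H2-Ab1 (0.932) and Nectin3 (0.917), and for Socs2 they were Med13l (0.958), Sec62 (0.946) and 9530068E07Rik (0.944).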

How the data were processed

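Liver RNA of 12 mice was sequenced. Per the labels, the authors depleted ribosomal RNA, made strand-specific libraries, trimmed reads with cutadapt 4.6 and aligned them to GRCm38 with STAR 2.7.1a, and per the methods they counted reads per Ensembl gene. The deposited values are raw counts of 24187 genes, whose totals over the livers are 15 or more. Symbols of 24092 genes and coordinates came from a GENCODE annotation of GRCm38.

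Genes with low counts were removed with filterByExpr by group, which left 22581. Counts were scaled with TMM, and edgeR 4.0.16 (R 4.3.3) was fitted once to all 12 livers, with quasi-likelihood tests, two-sided p-values and Benjamini-Hochberg adjustment over all tested genes. The common biological coefficient of variation was 0.214. log2 CPM used a prior count of 2. The study's own tool, DESeq2 (1.42.0 here), was an alternative. The 8 members, the gene lists, the tests and the alternatives were chosen with earlier results of these data known. Genes named beyond the members were the 4 of each list with the smallest p against control in APAP vehicle livers, plus a short set of pathway genes, and others are named for the completeness of a count. Alternatives changed tool, scaling, filter, samples and design, and left out each liver. The test was checked on simulated counts. The members had at least 324 counts in every liver, while some genes of the lists had few, down to 0 in single livers.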

Additional observations from a re-analysis of the deposited data

Results flagged for a closer look

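In groups of 4 or 5 livers, the highest or lowest value was compared with the others by Dixon's ratio for the 8 genes, 16 groups in all, and 3 were singled out, where chance gives about 1 in 20. In Igf1, APAP hAAM replicate 3 had 667 CPM and lay far from the other 3 hAAM-treated livers (443 to 475 CPM). In Socs2, APAP vehicle replicate 5 had 12.7 CPM beside 6.13 to 6.86 CPM in the other vehicle-treated livers, and APAP hAAM replicate 3 had 14.3 CPM beside 6.20 to 7.02 CPM. APAP hAAM replicate 3 was thus set apart for both Igf1 and Socs2.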

How the results depend on the processing

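No member that was called turned its direction in any of the 22 alternatives to the reported fit, and between APAP hAAM and APAP vehicle livers no member was called in any. Against control, APAP vehicle livers kept the calls of Socs2 and Stat5b in 22 of 22 alternatives, Ghr in 18, and Igfals and Igfbp3 in 11 each. APAP hAAM livers kept Socs2 in 19 and Stat5b in 12. Leaving out 1 liver at a time gave 2 to 5 members called in APAP vehicle livers (5 reported) and 0 to 2 in APAP hAAM livers (2 reported). It gave 9 to 15 male-biased targets in APAP vehicle livers, lowest without control replicate 3, and 0 to 6 female-biased targets in APAP vehicle and 0 to 1 in APAP hAAM livers. Other pathway genes called in APAP hAAM livers were 5 to 13. Of the 22394 to 23090 genes tested in these fits, 4633 to 7197 were called in APAP vehicle and 2419 to 5456 in APAP hAAM livers. Without the near-identical pair, 3 members were called in APAP vehicle and 1 in APAP hAAM livers, all lower (14.0% and 8.49% of all genes lower). The fit of only the groups compared gave 1 member and 6 other pathway genes in APAP hAAM livers, and scaling to hepatocyte markers gave 1 and 4. Over all genes these fits called 2729 of 21492 and 2474 of 22581. Of the female-biased targets in APAP hAAM livers, 1 was called with library size alone (7340 of 22581 genes in all). Without a low-count filter it was also 1 (4600 of 24187). In APAP vehicle livers, 2 were called with at least 10 counts in every liver (6051 of 18537). Between the treatments DESeq2 called 1 (Trim24), which was the 1 gene called of 22553. The cause of these shifts was not tested. Scaling also moved the balance over all genes. With TMM, 3380 of 6719 genes called in APAP vehicle and 2418 of 4666 in APAP hAAM livers were higher, with library size alone 8637 of 9747 and 6559 of 7340, and with hepatocyte markers 4770 of 5671 and 1874 of 2474, where the median over all genes was 0.35 and 0.23 on the log2 scale. The replicate numbers of the labels did not pair the livers, since deviations of 10 same-numbered pairs correlated at -0.66 to 0.55 and 3 exceeded 0.1. With the replicate block, 2 members and 0 female-biased targets were called in APAP vehicle livers and 1 member in APAP hAAM livers, with 4253 and 2959 genes in all. A term for the run of library numbers, chosen after seeing the data, called Ghr in APAP hAAM livers (-0.75, FDR 0.0255) and Cish in APAP vehicle livers (FDR 0.0357). The run of lower numbers held all APAP hAAM livers and, of the controls, only replicate 1. The term is therefore tied to group and cannot be fully separated from it.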
